A study of Mus musculus with 9 samples.

Results

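Adipose tissue secretes protein hormones and growth factors, and the 10 genes described here encode factors of that kind: Adipoq, Lep, Retn, Cfd and Rbp4, known best from white fat, Nrg4, Bmp8b and Il6, studied as factors released by brown fat, and the vascular growth factors Vegfa and Vegfb. The 10 symbols were chosen with earlier results of these data known, and each was matched through its Ensembl identifier to a row of a count table of 55416 genes. All 10 had a row. Of these, 9 passed the filter of at least 10 counts in at least 4 columns, as did 13451 genes in all, and Il6 did not. The genes lie on chromosomes 16 (Adipoq), 6 (Lep), 8 (Retn), 10 (Cfd), 19 (Rbp4 and Vegfb), 9 (Nrg4), 4 (Bmp8b), 17 (Vegfa) and 5 (Il6).

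The tissue was interscapular brown fat of C57BL/6J mice aged 8 to 10 weeks, all of which expressed Cas9. An AAV8 vector (an adeno-associated virus) had been injected into the fat pad, carrying either a guide RNA against UCP1 (4 samples) or a control guide RNA (5 samples), and the mice were housed at 22 °C for 14 days afterwards. The labels do not say which promoter drives Cas9 or in which cells of the pad it is made, and brown fat also holds vessels, leukocytes, fibroblasts and nerves. The table has 9 columns, each headed by a number and BAT, and they are called A to I here in ascending order of that number. The headings tie them to the tissue and to neither guide, so no column was given to a guide, no guide comparison was made, and spreads between columns contain any effect of the guide together with differences between samples. The labels do not state that the samples are separate animals.

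Brown adipocytes burn fatty acids and glucose to make heat through UCP1, a proton channel of the inner mitochondrial membrane, and they sit in one of the densest capillary beds of the body. White adipocytes store fat in a single large droplet and secrete leptin and, in rodents, resistin, at levels that brown adipocytes do not usually reach. White fat borders the interscapular brown pad and can be dissected with it. In bulk tissue, fewer cells of a type and less RNA per cell cannot be told apart.

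The columns held 15460829 to 17909534 counts. Levels are given as CPM, counts per 1000000 counts of the column. Genes of the mitochondrial genome took 22.3% (column A) to 33.9% (column F) of the counts, so the total left for other genes differed between columns. No pair of columns agreed within sampling noise (chi-square per gene of at least 10.7, where sampling alone gives about 1). Markers of brown adipocytes were present in every column: all 12 of that list passed the filter, and Cidea, a lipid droplet protein of brown fat, lay between 1265 and 1749 CPM. The 9 skeletal muscle genes summed to 173 CPM in column C and to as much as 3320 CPM in column F.

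The guide's target, Ucp1, was measured first. Its level was 459 CPM in column A, 396 in column E, 606 in column G and 445 in column H. It was 3848 CPM in column B, 4620 in column C, 2704 in column D, 3652 in column F and 3937 in column I. The largest step between neighbouring values, from 606 to 2704 CPM, took up 60.9% of the whole log2 range, above the 50% set as the limit for treating columns as 1 continuous set. The 5 columns above it and the 4 below it are each fewer than the 6 that a correlation needs. A rank correlation of the secreted factors with Ucp1 was therefore not computed, and each factor is given below with its value by column.

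**Figure D1:**
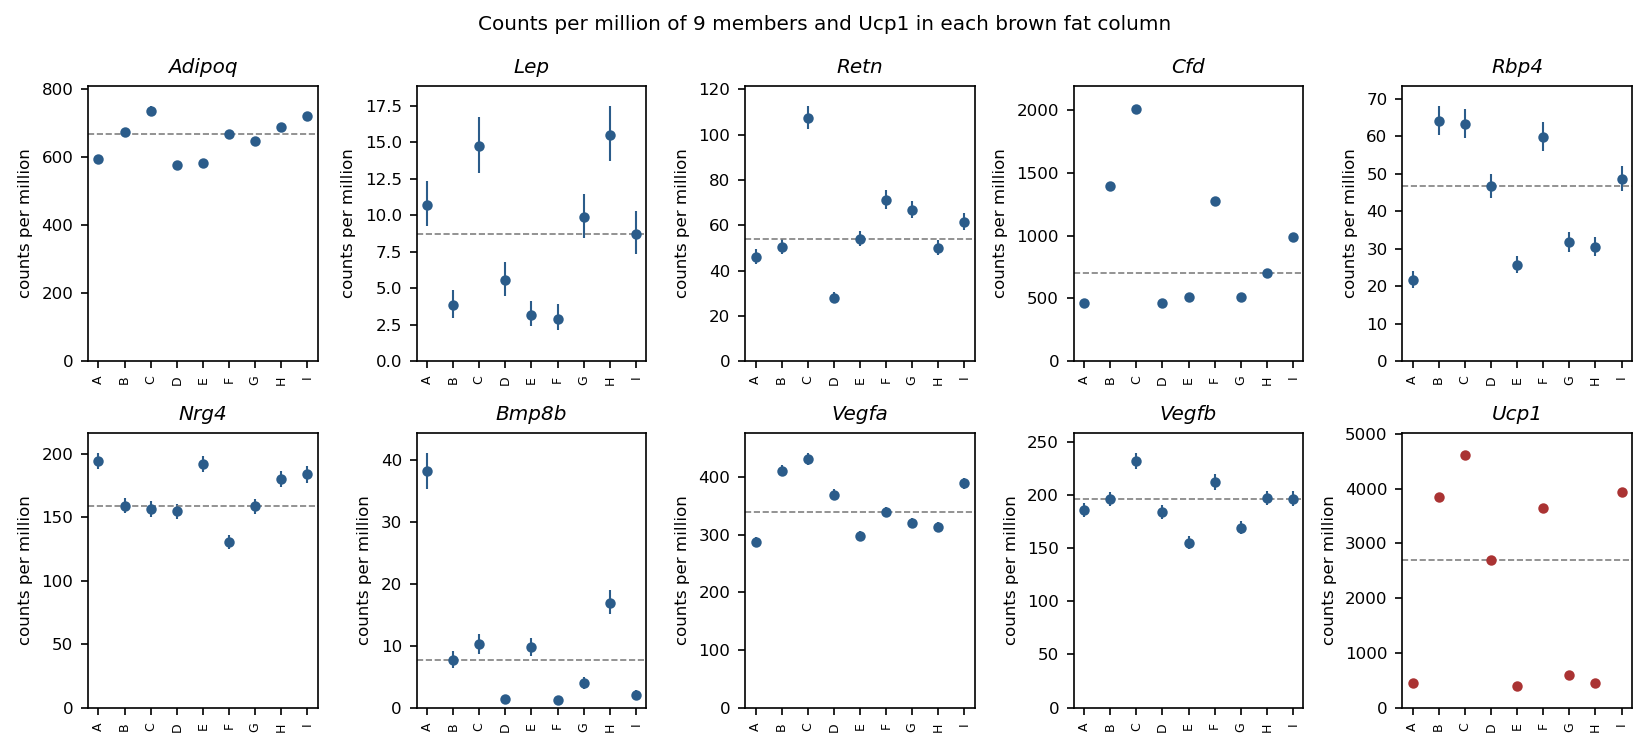
CPM of the 9 secreted factors that had counts, and of Ucp1 (red), in each of the 9 columns, A to I; bars are exact 95% Poisson intervals (counting error only) and dashed lines the median. Adipoq keeps within 576 to 735 CPM, while Bmp8b runs from 1.16 to 38.2 CPM with its highest value in column A.

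Per length of exon, the secreted factors spanned more than 2 orders of magnitude. The median level was 760 CPM per kb for Cfd, 483 for Adipoq, 122 for Vegfb and 79.2 for Vegfa. It was 34.7 CPM per kb for Rbp4, 34.3 for Retn, 26.2 for Nrg4, 2.60 for Lep and 1.99 for Bmp8b. The step from Adipoq to Vegfb, that from Vegfa to Rbp4 and that from Nrg4 to Lep each separated ranges that did not overlap. Cfd and Adipoq overlapped in range over columns, as did Vegfb and Vegfa, but within each of the 9 columns Cfd exceeded Adipoq and Vegfb exceeded Vegfa. Rbp4 and Retn were not ordered: Rbp4 was above Retn in 2 of 9 columns although its median was slightly higher. Lep exceeded Bmp8b in 6 of 9 columns.

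**Figure D2:**
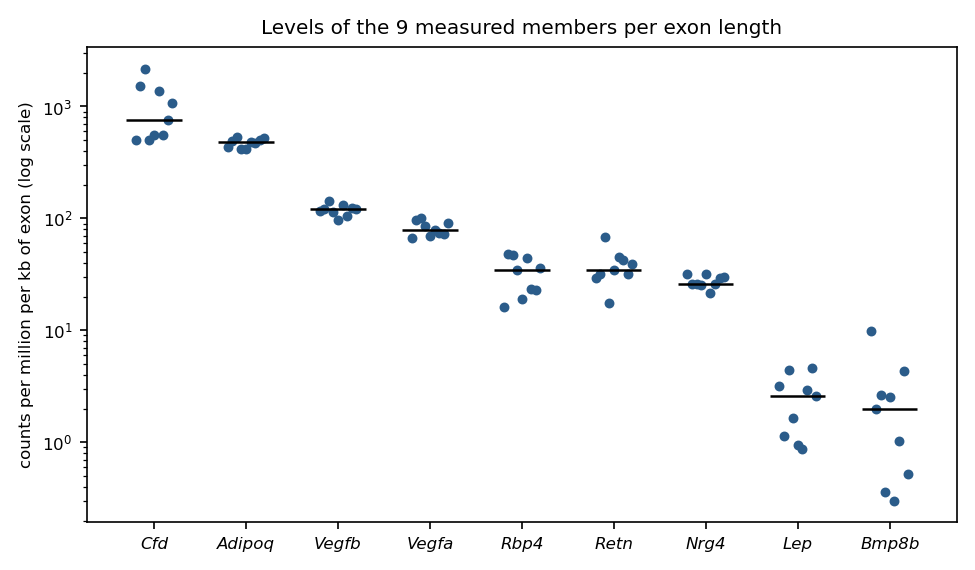
Level of the 9 measured factors in CPM per kilobase of annotated exon (log scale), 1 point per column, A to I from left to right within a gene; the horizontal line is the median. Cfd and Adipoq lie highest, with medians of 760 and 483, and Lep and Bmp8b lowest, with medians of 2.60 and 1.99.

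The factors were divided by whether their spread between columns reached a ratio of 2. The highest value was at least 2 times the lowest for 5 of the 9 measured factors, namely Lep, Retn, Cfd, Rbp4 and Bmp8b. The same held for 38.2% of all genes tested. The median ratio was 2.95 over the 9 factors and 1.75 over all genes tested. Low counts widen such ratios, so each factor was also set, as a description, beside the genes whose median CPM lay within a factor of 2 of its own. Among those, 0.529% were at least as wide as Cfd, 0.254% as Bmp8b, 1.62% as Retn, 2.34% as Lep and 3.40% as Rbp4. Each share counts the factor itself, and among the 189 genes at its level Cfd was the only one. Genes with a column at 0 were counted as not as wide. For Nrg4, Vegfa and Vegfb the shares were 53.5%, 52.8% and 51.7%, and 88.1% of the genes at its level were at least as wide as Adipoq.

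**Figure D3:**
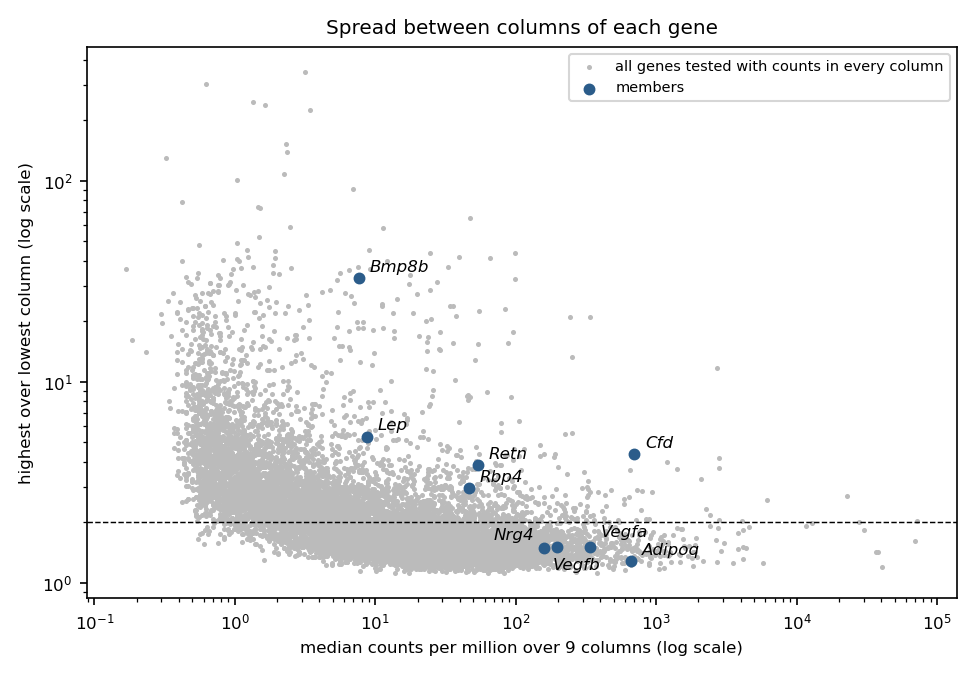
Highest over lowest column of each gene tested (log scale) against its median CPM (log scale), for genes with counts in every column; the dashed line marks a ratio of 2. Cfd and Bmp8b stand at the upper edge for their level, with ratios of 4.35 and 32.8, and Adipoq, with 1.28, lies on the narrow side of genes at its level.

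Adipoq encodes adiponectin, an insulin-sensitising hormone made by white and brown adipocytes alike. Its level ran from 576 CPM in column D through a median of 667 to 735 in column C, a ratio of 1.28 (95% counting interval 1.24 to 1.31). The columns lay close together. Of the 8 genes listed for all adipocytes, Adipoq among them, 0 reached a ratio of 2, against 38.2% of all genes tested. Their median ratio was 1.49, against 1.75 over all genes tested. These comparisons were not matched for level: the 8 genes had medians of 261 to 4339 CPM. Many genes tested lie far lower, where low counts widen ratios. The adiponectin receptors were detected, with Adipor2 between 570 and 885 CPM, Adipor1 between 153 and 207, and Cdh13 (T-cadherin, which binds adiponectin on vessels) between 24.3 and 36.6.

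Lep encodes leptin, the hormone that reports fat stores to the brain. It was 15.5 CPM in column H, 14.7 in column C, 10.7 in column A, 9.87 in column G and 8.73 in column I. It was 5.56 CPM in column D, 3.83 in column B, 3.18 in column E and 2.91 in column F. These levels rest on 45 to 276 counts, so the ratio of 5.33 between the extremes has a 95% counting interval of 3.88 to 7.48. The leptin receptor gene Lepr had at most 9 counts in any column and did not pass the filter.

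Retn encodes resistin, an adipocyte hormone in mice. It was 107 CPM in column C, 71.2 in column F, 66.8 in column G, 61.5 in column I and 54.2 in column E. It was 50.6 CPM in column B, 50.01 in column H, 46.1 in column A and 28.0 in column D. A single column stood high and a single column low, and without either of them the ratio of 3.84 became 2.55 (column C left out) or 2.33 (column D left out). Cap1, reported as a resistin receptor, varied little, from 70.1 to 94.0 CPM.

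A rank correlation asked whether columns high in Lep were also high in Retn. The Spearman rank correlation of Lep with Retn over the 9 columns was -0.1 (exact two-sided permutation p = 0.810; p = 0.957 adjusted by Benjamini-Hochberg over the 13450 genes tested against Lep). Pearson's r of log2(CPM + 1) was 0.24 (exact permutation p = 0.543, adjusted p = 0.899). Without column C and column H, farthest from the median of Lep in CPM, rho was -0.32 and r was -0.06 over 7 columns. Without column E and column F, farthest on the log2 scale (a choice added after the data were seen), rho was 0.21 and r was 0.54, so the sign depended on which columns were left out. No gene was called against Lep (0% of those tested), while 840 had an unadjusted exact permutation p under 0.05 by rank and 818 by Pearson's r. By rank over 9 columns, 1 gene alone could not pass the adjusted threshold even in perfect order. The absence of calls therefore says little, and many unadjusted p under 0.05 arise among 13450 genes without any relation. Column F had the lowest Lep and the second highest Retn, and column H had the highest Lep with Retn below its median. With the columns not tied to a guide, the relation could not be computed within one.

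**Figure D4:**
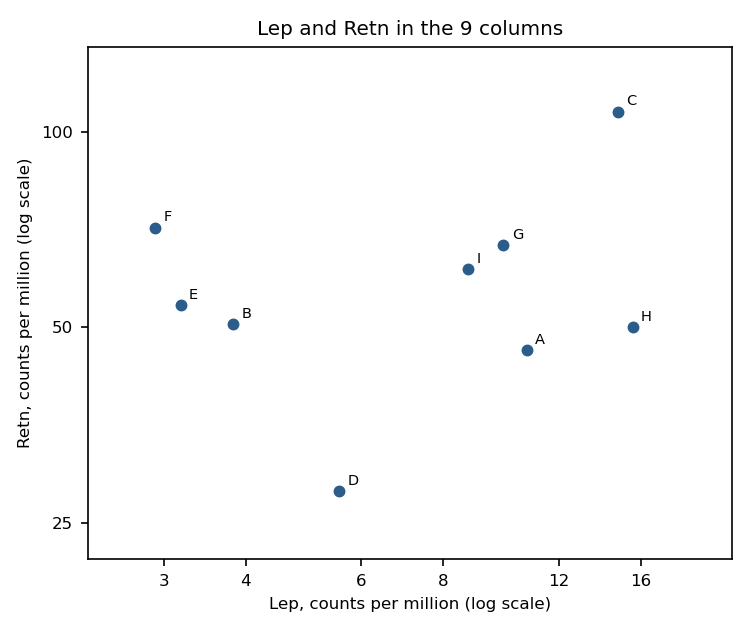
Retn against Lep in CPM, both on log scales, 1 labelled point per column. The points do not fall on a line: column C is high in both (14.7 and 107 CPM), column F is lowest in Lep (2.91) with 71.2 in Retn, and column H is highest in Lep (15.5) with 50.01 in Retn.

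The other genes listed as enriched in white adipocytes gave another order. Without Lep and Retn, the list summed to 38.4 CPM in column G and to between 13.2 and 25.3 CPM in the remaining columns. Of the 5 other genes of the list that passed the filter, 3 were highest in column G: Sncg, the gene of gamma-synuclein, at 18.2 CPM, Nnat, a small imprinted membrane protein, at 8.88 and the positional gene Hoxc8 at 6.97, against medians of 11.3, 2.06 and 3.03. The remaining ones, Agt and Mest, were highest in column I, at 3.27 and 1.33 CPM. Wfdc21, which did not pass the filter, was highest in column H, at 0.67 CPM. Hoxc9, Hoxc10 and Tcf21, positional and lineage genes of white depots, had at most 1, 4 and 1 counts in any column. Column C, high in Lep and Retn, had 21.2 CPM for the list, the median. The part of neighbouring white fat in the levels of Lep and Retn was not tested.

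**Figure D5:**
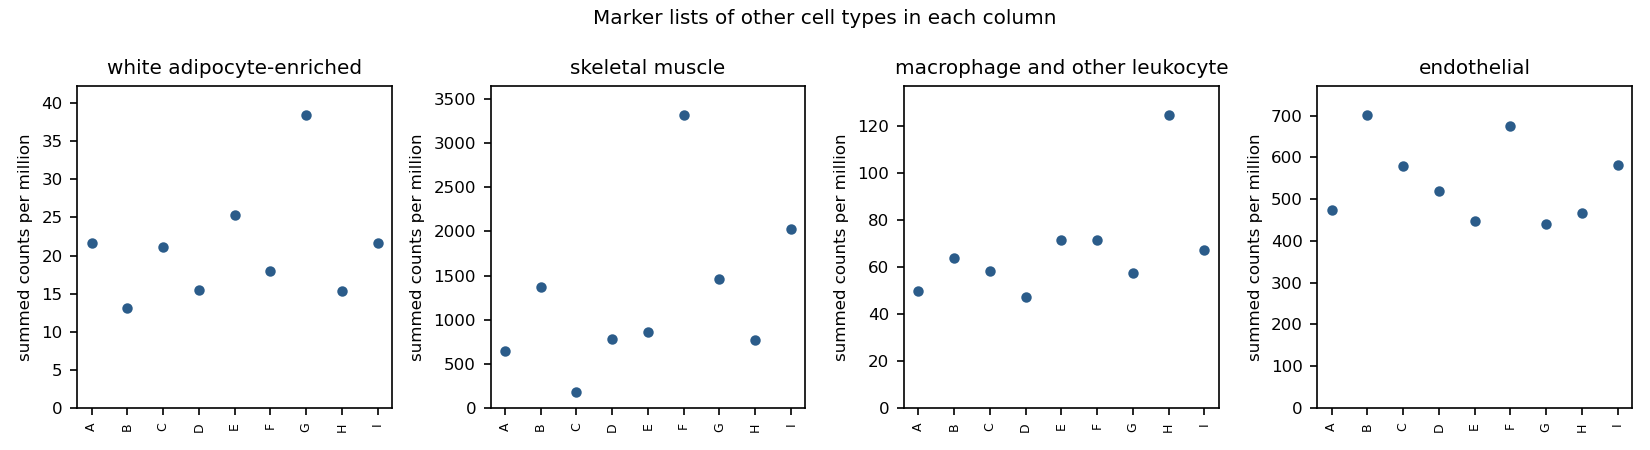
Summed CPM of the marker lists for white adipocytes (without Lep and Retn), skeletal muscle, leukocytes and endothelium in each column, on axes from 0. The highest column differs by list: column G for white adipocyte genes (38.4), column F for muscle (3320), column H for leukocytes (125) and column B for endothelium (701).

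Cfd encodes adipsin, the protease (complement factor D) that starts the alternative complement pathway by cleaving factor B. It was 2009 CPM in column C, 1395 in column B, 1279 in column F and 993 in column I. The remaining columns had 701 CPM in column H, 514 in column E, 511 in column G, 462 in column A and 462 in column D. The ratio was 4.35 (95% counting interval 4.25 to 4.46), and 3.02 without column C. Among its partners in the pathway, C3, the central complement protein, stood at 867 to 1456 CPM, while Cfb, which encodes factor B itself, had at most 3 counts in any column. C3ar1, the receptor for the fragment C3a, lay between 0.96 and 1.69 CPM.

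Rbp4 encodes the carrier of retinol in blood, which adipocytes also secrete. It was 64.0 CPM in column B, 63.3 in column C, 59.8 in column F, 48.7 in column I and 46.6 in column D. It was 31.8 CPM in column G, 30.5 in column H, 25.7 in column E and 21.7 in column A. The step from 31.8 to 46.6 CPM was its widest, at 35.5% of the log2 range, and the ratio of the extremes was 2.95 (95% counting interval 2.62 to 3.32). The RBP4 receptor genes Stra6 and Stra6l had at most 3 counts each in any column.

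Among the factors studied in brown fat, Nrg4 had an ordinary spread for its level, with 53.5% of genes at that level at least as wide. Bmp8b varied most of the 9. Nrg4 encodes neuregulin 4, a ligand of the ERBB receptor family that brown adipocytes release. It ran from 130 CPM in column F through a median of 159 to 194 in column A, a ratio of 1.49 (95% counting interval 1.41 to 1.57). Without column F the lowest column was column D at 155 CPM. Of the receptor genes, Erbb4 lay between 3.15 and 7.31 CPM, Erbb3 between 4.02 and 7.30, Egfr between 2.14 and 6.5 and Erbb2 between 2.88 and 4.79. Exons of Nrg4 overlap 368 bases of Fbxo22 on the opposite strand, and Fbxo22 lay between 8.77 and 14.98 CPM. Of the distinct 50-base stretches in Nrg4 transcripts, 6.18% also occurred in another gene when both strands were read. Those genes were Fbxo22 and Gm15625, whose exons overlap 177 bases of Nrg4, likewise on the opposite strand.

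Bmp8b encodes a bone morphogenetic protein that is induced by cold and by high-fat feeding and raises the response of brown fat to noradrenaline. It was 38.2 CPM in column A, 17.0 in column H, 10.2 in column C, 9.77 in column E and 7.72 in column B. It was 3.95 CPM in column G, 2.001 in column I, 1.40 in column D and 1.16 in column F. The counts behind these levels ran from 18 to 677, and the ratio of 32.8 has a 95% counting interval of 20.6 to 55.7. One column carried much of it: without column A the ratio was 14.6. Among genes of receptors for the family, Acvr1c (ALK7, type I) lay between 60.6 and 93.0 CPM, Bmpr2 between 49.95 and 77.6 and Bmpr1a between 29.9 and 48.0.

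Bmp8b has a close copy, Bmp8a, on the same chromosome (chromosome 4), and reads from a stretch that both share cannot be given to either. Bmp8a had at most 3 counts in any column. Over 1197 aligned coding bases the genes were 88.0% identical. The coding sequence of Bmp8a has 1236 bases, so some of it lies outside the aligned bases. Of the 3815 distinct 50-base stretches in Bmp8b transcripts, 210 (5.50%) also occurred in Bmp8a. With all genes counted and both strands read, 10.3% occurred in another gene, Gm17244 and Ppie among them. The sequences are shown because they mark where counting can and cannot separate the genes. They come from GENCODE M21 transcripts (GRCm38), are given in transcript direction and are numbered from the first coding base of Bmp8b. The first is the longest stretch that is the same in both, bases 451 to 632. The others are the 60-base window in which they are least alike, taken among windows without an alignment gap. It covers bases 15 to 74 of Bmp8b, with the 16 differing bases in capitals.
Bmp8b and Bmp8a, identical: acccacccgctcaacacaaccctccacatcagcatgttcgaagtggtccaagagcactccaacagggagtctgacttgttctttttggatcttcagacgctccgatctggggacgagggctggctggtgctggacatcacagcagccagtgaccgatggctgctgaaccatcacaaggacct
Bmp8b, least alike: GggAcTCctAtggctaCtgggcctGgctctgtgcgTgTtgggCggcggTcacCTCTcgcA
Bmp8a, least alike: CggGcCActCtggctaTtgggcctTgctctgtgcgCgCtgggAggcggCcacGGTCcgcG
The handling of reads that map to both genes is not stated in the sources used. The exons of Bmp8b also overlap 339 bases of Gm17244 on the opposite strand, which lay between 0 and 0.11 CPM. They overlap 133 bases of Ppie on that strand, and Ppie lay between 6.02 and 10.7 CPM, a narrower range than that of Bmp8b.

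Vegfa encodes the growth factor that drives capillary growth through the receptor KDR, and Vegfb a relative that binds FLT1 and has been linked to fatty acid handling. Vegfa ran from 288 CPM in column A through a median of 339 to 431 in column C, a ratio of 1.5 (95% counting interval 1.45 to 1.56). Its order from high to low was column C, column B, column I, column D, column F, column G, column H, column E and column A. Vegfb ran from 155 CPM in column E through a median of 196 to 232 in column C, a ratio of 1.496 (1.42 to 1.57). Their receptors were expressed: Kdr lay between 116 and 168 CPM, Flt1 between 80.5 and 180, Nrp1 between 98.2 and 164, and Nrp2 between 87.2 and 177. The 7 endothelial genes, Kdr among them, summed to between 441 CPM in column G and 701 in column B. Of the other ligands of the family, Vegfd lay between 3.77 and 7.71 CPM and Vegfc between 0.95 and 2.09, and Pgf had at most 7 counts in any column.

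Il6, the gene of interleukin 6, a cytokine that muscle, leukocytes and fat can release, had 0 counts in all 9 columns. The upper end of the exact 95% Poisson interval at 0 counts is 0.21 to 0.24 CPM by column, so Il6 was not detectable at this depth. The receptor side was present, with the shared subunit Il6st at 89.8 to 127 CPM, the specific subunit Il6ra at 7.37 to 16.9, and the signal transducer Stat3 at 51.9 to 65.4. Socs3, a target and inhibitor of the pathway, lay between 0.99 and 2.57 CPM. Other inflammatory cytokine genes were also near the limit, with at most 7 counts of Tnf and 5 of Il1b in any column.

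The order of the columns differed between factors. Rbp4 and Vegfa had the same 5 highest columns, B, C, D, F and I. Of these 5 columns Adipoq, Cfd and Vegfb each had 4 among their highest 5, Retn had 3, and Lep, Nrg4 and Bmp8b had 2. The same 5 columns were those with Ucp1 above its largest step. Their mitochondrial genome shares were 31.5% to 33.9%, against 22.3% to 26.5% in columns A, E, G and H. The part of either in these orders was not tested. Column C had the highest value for 5 of the 9 measured factors (Adipoq, Retn, Cfd, Vegfa and Vegfb) and was among the top 2 columns for 7, with Lep and Rbp4 added. The same column had the highest Ucp1 and the lowest level of each of the 9 muscle genes, whose sum of 173 CPM compares with 641 to 3320 CPM elsewhere. At the other end, column D and column E were each among the lowest 2 columns for 5 factors. Bmp8b and Nrg4 were highest in column A, where Vegfa and Rbp4 were lowest. The part of muscle content in these orders was not tested.

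Of the 31 receptor and partner genes listed for the 10 factors, 26 passed the filter and 9 of those reached a ratio of 2 between columns, with a median ratio of 1.67. Of 41 other secreted factors of fat, 32 passed and 25 reached a ratio of 2, with a median of 2.87. Both counts are to be read beside the 38.2% of all genes tested. Neither list was matched for level, and low counts, such as the 7 to 26 of Bmp4 or the 10 to 31 of Adm, widen such ratios. Among the widest of the 41 were hormones induced by cell stress, Fgf21 and Gdf15. Fgf21 had 324 counts (18.1 CPM) in column E and 1.63 to 3.77 CPM in columns A, G and H. The remaining columns had at most 0.62 CPM of Fgf21, with 1 count (0.06 CPM) in column B. Gdf15 was 10.2 CPM in column G, 7.37 in column E, 3.10 in column A and 2.14 in column H. In the remaining columns Gdf15 lay between 0.36 and 0.76 CPM. Angptl8, which inhibits lipoprotein lipase in concert with other angiopoietin-like proteins, ran from 15.3 to 70.2 CPM with its highest values in column H and column C, which were also the highest for Lep. Steady members of the list were Sparc, a matrix protein, at 489 to 643 CPM, Pltp at 68.6 to 92.7 and Angptl2 at 79.0 to 117.

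For each factor, the 2 genes of most similar pattern over the 9 columns were taken by Pearson's r of log2(CPM + 1) among the 9170 other genes with a median of at least 5 CPM. With so many genes and 9 columns, high values of r arise readily, and they are given as a description. The 9 columns also fell into separate ranges of Ucp1, so a high r over all of them does not show agreement within either range. Retn was closest to Trappc5 (r = 0.98), a subunit of a vesicle tethering complex, and to Trf (0.98), the gene of transferrin, another secreted protein. Cfd was closest to Ybx1 (0.98) and Rin3 (0.98). Rbp4 was closest to Casp6 (0.97) and Apoe (0.96), the gene of apolipoprotein E, which ran from 213 to 603 CPM. Lep was closest to Hadh (0.96), a mitochondrial enzyme of fatty acid oxidation, and to Pex2 (0.94), a peroxisome assembly factor. Nrg4 was closest to Gpat4 (0.98), an enzyme of glycerolipid synthesis, and Zfp664 (0.94). Adipoq was closest to Akr1b10 (0.97) and Zbtb16 (0.96), Bmp8b to Hemk1 (0.95) and Naa60 (0.95), Vegfa to Zcchc14 (0.97) and Cep250 (0.94), and Vegfb to Paox (0.96) and Uqcr11 (0.94).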

How the data were processed

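RNA of interscapular brown fat was sequenced. The deposited values are whole-number counts per Ensembl gene. FastQC, STAR and DESeq2 are listed in the submitters' processing notes, as is the build GRCm39. Their versions, the annotation, the counting mode and its strand setting are not stated there. Columns were tied to the tissue named in the labels only. Symbols came from a table of GENCODE M21 genes, which matched 52083 of 55416 identifiers.

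Counts were divided by the column sum (CPM); DESeq2 1.42.0 size factors and edgeR 4.0.16 TMM factors (0.91 to 1.04) were alternatives, and neither tool was used for a test. Exon lengths and overlaps came from GENCODE M21 (GRCm38), so no coordinates are given and levels per kb are approximate. Correlations used exact enumeration of column orders (numpy 2.4.6, scipy 1.17.1), checked on simulated data. Intervals are exact (Poisson for a level, binomial for a ratio of counts), at 95%, and cover counting error only. The columns of each ratio were picked as highest and lowest from the same values, which its interval does not take into account. Named genes were the members, genes of fixed lists that a count or range turns on, and the 2 genes of most similar pattern for each member. Members and lists were chosen with earlier results of these data known.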

Additional observations from a re-analysis of the deposited data

Results flagged for a closer look

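Values over the 9 columns were examined for 1 column far from the rest: the gap from the highest or lowest column to its neighbour, divided by the whole range, was compared with Dixon's 95% critical value for 9 values. Of 20 sets of values (9 secreted factors, Ucp1 and the sums of 10 gene lists), 3 exceeded it, and chance gives about 1 in 20. On the log2 scale, tried after the data were seen, the leukocyte sum alone exceeded it (0.572).

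Bmp8b had a ratio of 0.573, with 38.2 CPM in column A and 17.0 CPM in the next column, column H; on the log2 scale the ratio was 0.232. The summed white adipocyte genes without Lep and Retn had a ratio of 0.518, with 38.4 CPM in column G and 25.3 CPM in column E; on the log2 scale the ratio was 0.388. The summed leukocyte genes had a ratio of 0.686, with 125 CPM in column H and 71.5 CPM in the next column; Lyz2, a lysozyme of macrophages, was 56.6 CPM in column H against a median of 23.6, and Ptprc, the common leukocyte antigen, 9.96 CPM against 2.56. Column H also had the highest Lep, and no cause was tested.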

How the results depend on the processing

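The count of 5 factors with a ratio of at least 2 held under TMM scaling, DESeq2 size factors, column sums without Ucp1, column sums without the mitochondrial genome (chosen after seeing the data) and each of the 9 omissions of a column. Single ratios moved more than counting error allows. Over the 4 other scalings Adipoq reached 1.40, Cfd 4.93, Rbp4 3.46, Vegfa 1.70 and Vegfb 1.62, and Nrg4 fell to 1.36, all outside their counting intervals. Lep, Retn and Bmp8b stayed within theirs. The shares among genes of like level were computed on CPM only. TMM raised column D by 0.13 on the log2 scale relative to CPM, and leaving out the mitochondrial genome moved columns by up to 0.23 relative to each other. The widest step in Ucp1 stayed above 50% of the range throughout (60.9% to 73.2%). The sign of the Lep and Retn correlation was not stable: it was 0.083 by rank without the mitochondrial genome, 0.24 by Pearson's r with a pseudocount of 1 and 0.23 with 0.1, and it ran from -0.43 to 0.12 with 1 column left out; adjusted p over these settings ranged from 0.710 to 1. Without columns E and F it was 0.21 by rank. Leaving out 1 column moved a ratio by over 1.5 times for Bmp8b (14.6 without column A) and Retn (2.55 without column C, 2.33 without column D). The alternatives planned for the correlation with Ucp1, among them edgeR and DESeq2 slopes, were not run because the columns formed clusters too small for it. No paired analysis was possible because column headings carry no replicate number or guide. Depth limits Il6, Lepr and Bmp8a, which had 0 to 9 counts.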

Other observations

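The values of Ucp1 in the 9 columns fell into separate ranges, 396, 445, 459 and 606 CPM and 2704, 3652, 3848, 3937 and 4620 CPM, and the columns were not given to a guide on that basis. Among other brown fat genes, Cidea ran from 1265 to 1749 CPM and Cox8b from 816 to 1266 CPM. Elovl3, an elongase of very long fatty acids, was 526 to 828 CPM in columns A, E, G and H. In the remaining columns Elovl3 was 151 to 225 CPM. Dio2, the enzyme that activates thyroid hormone, ran from 152 to 347 CPM, and Zic1, a positional gene of interscapular fat, from 5.11 to 19.7 CPM.

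Schwann cell genes, which mark nerve in the pad, summed to between 39.9 CPM in column H and 88.6 CPM in column C over 4 genes. Fibroblast and preadipocyte genes summed to between 170 CPM in column A and 381 CPM in column F over 7 genes, with Col3a1 between 29.1 and 126 CPM.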
